A study of Rattus norvegicus with 8 samples.

Results

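The HOX genes were followed in the ovary of immature rats across 4 arrays labelled control and 4 labelled PMSG. Members were the non-control probes whose gene name in the array files is Hox, a cluster letter from a to d and a paralogue number. This gave 29 of the 26233 gene names and identifiers on the array, read by 31 of its 30367 probes. Per the labels' protocols, female rats were 26 days old when they received 50 IU of PMSG (pregnant mare serum gonadotropin, which acts on ovarian follicles mainly as follicle-stimulating hormone does) under the skin, dissolved in 0.2 ml of phosphate buffer with albumin. The control group received the same volume of buffer alone, and ovaries were taken 48 h after the injection, at 28 days of age. No genotype or strain was named. Total RNA was converted to Cy3-labelled cRNA from an oligo-dT primer and hybridised to 1-colour Agilent rat arrays. The labels number the replicates but do not say whether a replicate was 1 animal or a pool, so p-values measure the spread between these samples only.

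HOX genes encode homeodomain transcription factors that give cells their position along the head-to-tail axis of the embryo. They lie in clusters named A, B, C and D, and their order within a cluster follows the order of the body regions where they act: low paralogue numbers act anteriorly and high ones posteriorly. Genes with the same number in different clusters are paralogues. Along the Müllerian duct, the embryonic tube that forms the female reproductive tract, the posterior genes Hoxa9, Hoxa10, Hoxa11 and Hoxa13 mark oviduct, uterus, cervix and upper vagina in turn. HOX proteins bind DNA together with TALE homeodomain partners of the PBX and MEIS families, and their transcription is held off by Polycomb and kept on by Trithorax proteins.

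Each probe is a 60-base oligonucleotide, and the stretch it reads sets what its signal means. The last 30 bases are shown for the 9 probes that passed the test below and for Hoxd10 and Hoxa11, whose signal differed most from array to array. Capitals mark AATAAA, the letters of the usual polyadenylation signal, which lies close to the end of a transcript.

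Hoxa2: gtgattttcctgaaaacaaaacacgaggcc
Hoxa7: ttacgaaaatggggggaAATAAAgtgtaaa
Hoxb2: taaactctagggggacttcttaaaaataac
Hoxb4: ccaggcctcggcccatctgtcttgtttact
Hoxb6: ggacgtgaaatacttcggtaataatattaa
Hoxb7: ctgaaggatggaaaaAATAAAaaaggatta
Hoxc6: ttctcgaatatttAATAAAactgatattat
Hoxd4: ctcccagtggcccatgcccaaagaAATAAA
Hoxd9: tacaAATAAAtgctgatctgaacaaatgga
Hoxd10: catgtgtaatgcAATAAActctggaaatga
Hoxa11: catacagggatggtgttcaaaagacttgta

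The 6 letters AATAAA, searched on the probe strand, occur in 5 of the 9 probes that passed the test (55.6%), in 9 of the 31 HOX probes (29.0%) and in 8.39% of all 30367 probes. The labelling started from an oligo-dT primer at that end. Paralogues resemble each other in the sequence that codes for the homeodomain, and which HOX probes read that sequence was not checked. The probes of Hoxc12 and Hoxd12 are shown as an example of resemblance, with their longest shared run in capitals.

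Hoxc12: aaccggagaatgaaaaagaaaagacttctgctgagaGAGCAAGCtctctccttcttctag
Hoxd12: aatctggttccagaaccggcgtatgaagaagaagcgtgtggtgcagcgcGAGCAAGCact

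Aligned without gaps, these 2 probes are identical at 34 of 47 overlapping positions, yet their longest shared run is 8 bases. Over all pairs of HOX probes the longest shared run was 17 bases, between Hoxa6 and Hoxb8, and the next was 11 bases, between Hoxb8 and Hoxc12. None of the 9 probes that passed the test is in the top pair. Probe coordinates on rat build rn4 place the HOXA probes on the minus strand of chromosome 4. The HOXB, HOXC and HOXD probes lie on the plus strand of chromosomes 10, 7 and 3, and the Hoxb2 probe is not mapped. Annotation of exons on that build was not used here.

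One name needed correction. The probe at chr4:80515641-80515700 is called Hoxa9 in the array files, but its accession belongs to Hoxa7 in RefSeq, and it lies between the probes of Hoxa6 and of Hoxa9l, as Hoxa7 lies between Hoxa6 and Hoxa9 in RefSeq. It is called Hoxa7 throughout. Of the 31 probes, 24 had an accession in the RefSeq table and 1 of those, this one, had another symbol there. The probe named Hoxa9l falls outside the naming rule, but RefSeq lists that name as a synonym of Hoxa9, and its values are given at the end.

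A probe was counted as detected on an array when at least 0.5 of its usable spots were flagged well above background. Of the 31 HOX probes, 20 were detected on all 8 arrays and 4 on none: Hoxa3, Hoxa6, Hoxd12 and 1 of the 2 Hoxc5 probes. A second Hoxc5 probe, 1 of 5 HOX probes with a single spot, was detected on all 8 arrays. The probes of that gene thus disagree on whether it can be seen. All tested members with paralogue numbers 4 to 10 were detected on every array. At the posterior end, Hoxa13 and Hoxc13 were detected on all 8 arrays, Hoxc12 on 4 control and 3 PMSG arrays, Hoxb13 on 2 PMSG arrays and Hoxd13 on 1.

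**Figure D1:**
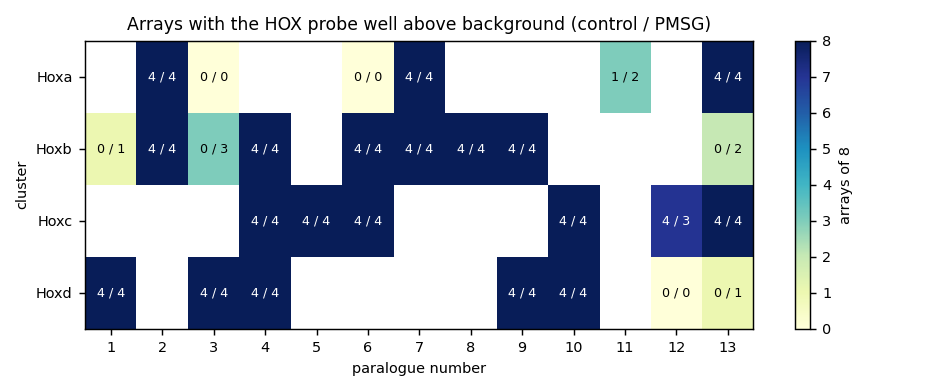
Arrays on which the HOX probe was well above background, by cluster (rows) and paralogue number (columns), as control / PMSG arrays out of 4 each; colour gives the sum, blank cells are not shown here, and the better detected probe is shown for Hoxc5. Cells for paralogue numbers 4 to 10 read 4 / 4 apart from Hoxa6 at 0 / 0, while Hoxa11 reads 1 / 2.

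Across the series, 80.8% to 84.6% of probes were detected per array, and the 75th percentile of signal, which sets the scale, ran from 768.9 to 1103 intensity units. All arrays share 1 slide and scan. Levels below are scaled log2 signals, log2 of the processed signal minus that array's 75th percentile, and are compared only within a probe. Oocyte markers (8 of 8 tested) were higher in the PMSG arrays, as were the markers of oviduct epithelium (8 of 8, median log2 difference 1.80). Star, which carries cholesterol into mitochondria, was lower, at a log2 difference of -2.75 and Cyp11a1, the side-chain cleavage enzyme, by -3.36, although gonadotropin stimulation is generally known to raise both. Every direction here follows the sample titles.

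HOX genes with paralogue numbers from 2 to 9 included all those called higher in the arrays labelled PMSG. Of 21 tested HOX probes, 9 passed the threshold of limma's test (Benjamini-Hochberg adjusted p under 0.05 over all 25303 tested probes), and all 9 were higher in PMSG: Hoxa2, Hoxa7, Hoxb2, Hoxb4, Hoxb6, Hoxb7, Hoxc6, Hoxd4 and Hoxd9. The share called among HOX probes was 42.9%, against 34.2% of all tested probes called in either direction and 17.6% called higher in PMSG. The median log2 difference over the 21 probes was 0.56, against 0.11 over all tested probes, 58.0% of which had a positive difference. The differences ranged from -0.25 to 1.84, with 19 positive and 2 negative. Differences of 2-fold or more were seen for 3 of 21 HOX probes, Hoxa2, Hoxa7 and Hoxb8, beside 14% of all tested probes. For 8 of the 21 tested HOX probes, every PMSG array lay above every control array, a pattern found in the same direction in 17.9% of all tested probes. These 8 were the called probes other than Hoxb2, and the call itself favours such separation. The count fell to 5 without control 1, without control 2 or without control 4, where 14%, 13.4% and 12.9% of all probes were called higher. It was 11 without control 3 (15.2% of all probes) and 12 without PMSG 4 (27.6%). It also fell to 5 when arrays were centred on their median, where 11.5% of all probes were called higher in PMSG in place of 17.6%. Without control 3, PMSG 1 and PMSG 4, 3 arrays that stand apart for Hoxa11 as described below, it was 7 of 21, 5 of them among the 9, beside 14.1% of all probes called higher.

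By cluster, 2 of 4 tested HOXA probes, 4 of 6 HOXB, 1 of 6 HOXC and 2 of 5 HOXD probes were called. By paralogue number, calls fell within numbers 2 to 9, with 9 of 16 tested probes called for numbers 1 to 9 and 0 of 5 for numbers 10 to 13. Over all tested probes, 17.6% were called higher. By level, 7 of 13 tested probes whose control mean was at least 2 log2 units above the lowest spot well above background were called, and 2 of 8 others. Hoxa13 and Hoxc12, of the posterior set, lay 1.04 and 0.51 above that spot. The median log2 difference was 0.77 for paralogue numbers 1 to 9 and 0.35 for numbers 10 to 13, and the difference between these ranges was not tested. Among the 5 posterior probes 0 had an unadjusted p under 0.05. Hoxd10 passed without control 3, and Hoxc12 passed as lower with quantile normalization, at -0.57. In bulk ovary, more cells of a type and more RNA per cell cannot be told apart, so each difference below may be either.

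**Figure D2:**
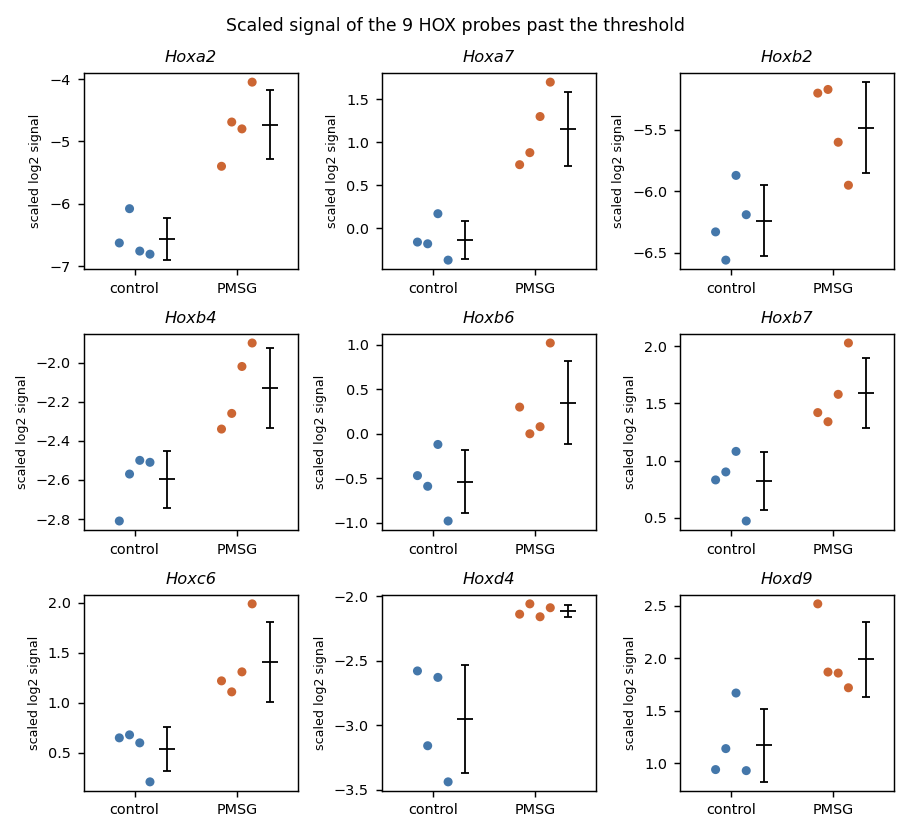
Scaled log2 signal (log2 processed signal minus the array's 75th percentile) of the 9 called HOX probes, 1 panel per probe with its own scale; points are arrays, blue for control and orange for PMSG, and bars are the mean and SD of 4. The groups overlap for Hoxb2 alone, where control 3 at -5.87 lies above PMSG 4 at -5.95.

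Hoxa2, the most anterior HOXA gene called and known for patterning the hindbrain and second pharyngeal arch, had the widest difference of the 21. Its scaled log2 signal was -6.63, -6.08, -6.76 and -6.81 in control arrays 1 to 4 and -5.40, -4.69, -4.80 and -4.05 in PMSG arrays 1 to 4. The groups did not overlap, and PMSG 4 was the highest array. This is a log2 difference of 1.84 ± 0.29 (SE, and likewise below; limma's adjusted p = 0.00191), or 3.57-fold with a 95% interval of 2.26 to 5.65. The control signal was near background, since 5 of its 8 control spots were well above it. With the control arrays held at no less than the lowest spot well above background, the ratio was at least 3.15-fold on this scale. The difference shrank to 0.59 with normexp background correction, which here added an offset of 50 intensity units. Before scaling, Hoxa2 read 9.25 to 15.6 units in control and 23.3 to 65.3 in PMSG arrays. The offset alone therefore narrows its log2 difference, and it does so for the other dim probes below. Hoxa2 remained past the threshold there, over a range of adjusted p from 0.00135 to 0.0204 in all alternatives tried. Hoxb2, its HOXB paralogue, was measured less firmly. It read -6.33, -6.56, -5.87 and -6.19 in control and -5.20, -5.17, -5.60 and -5.95 in PMSG arrays. The log2 difference was 0.76 ± 0.21 (adjusted p = 0.0270). Only 4 of 8 control spots were well above background, which gives a ratio of at least 1.67-fold on this scale, but not under the alternatives. With the authors' deposited values the difference was 0.04 and with normexp 0.25, and the adjusted p ranged from 0.00838 to 0.873. The call was also lost with quantile normalization, without variance moderation and with replicate number as a block. Leaving out control 1, control 2, control 4, PMSG 1 or PMSG 2 ended it too.

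Hoxa7 was well above background on every array and had the second widest called difference. HOX genes of group 7 act in the thoracic part of the axis. Control arrays 1 to 4 read -0.16, -0.18, 0.17 and -0.37 and PMSG arrays 1 to 4 read 0.74, 0.88, 1.30 and 1.70. The 2 groups were separated by a gap, with the lowest PMSG array above the highest control array. The log2 difference was 1.29 ± 0.22 (adjusted p = 0.00308, 2.45-fold, 95% interval 1.71 to 3.49). Under the 20 alternatives it ran from 1.11 to 1.43, with adjusted p from 0.00109 to 0.0144. Hoxa2 and Hoxa7 were the 2 of 9 called probes that kept their call under all 20 alternatives, and all 9 kept their direction. Hoxb7, the group 7 paralogue in HOXB, read 0.83, 0.90, 1.08 and 0.47 in control and 1.42, 1.34, 1.58 and 2.03 in PMSG arrays. Its log2 difference was 0.77 ± 0.19 (adjusted p = 0.0145, 1.71-fold). The groups did not overlap. The call was lost on median centring and with replicate number as a block, with adjusted p from 0.0081 to 0.0655 over the alternatives.

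Both detected group 6 genes were called and differed by nearly the same amount. Hoxb6 read -0.47, -0.59, -0.12 and -0.98 in control arrays and 0.30, 0.00, 0.08 and 1.02 in PMSG arrays. The log2 difference was 0.89 ± 0.26 (adjusted p = 0.0313, 1.85-fold). PMSG 4 was the highest array, and no PMSG array fell below the control arrays. The call was lost without control 1, control 2, control 4 or PMSG 1, and without variance moderation. Its adjusted p ranged from 0.0112 to 0.0901. Hoxc6 read 0.65, 0.68, 0.60 and 0.21 in control and 1.22, 1.11, 1.31 and 1.99 in PMSG arrays. Its difference was 0.87 ± 0.21 (adjusted p = 0.0135, 1.83-fold), again without overlap and with PMSG 4 highest. Median centring, replicate number as a block, or leaving out control 3, PMSG 1 and PMSG 4, ended the calls of Hoxb6 and Hoxc6. Their adjusted p reached 0.0901 and 0.0601. Hoxc6 was the HOXC probe called, 1 of 6.

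Group 4 had 3 tested members, of which Hoxb4 and Hoxd4 were called. Hoxb4, known also as a factor of blood stem cells, read -2.81, -2.57, -2.50 and -2.51 in control and -2.34, -2.26, -2.02 and -1.90 in PMSG arrays. The difference was the smallest of those called, 0.47 ± 0.13 (adjusted p = 0.0273, 1.38-fold), and the groups did not overlap. It was lost with quantile normalization or median centring and without control 1, control 2, control 4 or PMSG 3. Leaving out control 3, PMSG 1 and PMSG 4 together also ended it, in a range of adjusted p from 0.0230 to 0.227. Hoxd4 read -2.58, -3.16, -2.63 and -3.44 in control and -2.14, -2.06, -2.16 and -2.09 in PMSG arrays. Its PMSG arrays lay close together, with an SD of 0.05 against 0.42 in control arrays. The log2 difference was 0.84 ± 0.20 (adjusted p = 0.0120, 1.79-fold). It missed the threshold in 1 alternative, without control 3, PMSG 1 and PMSG 4, at 0.0615, in a range from 0.00518. Hoxc4 differed by 0.29 ± 0.13 in the same direction and did not pass (adjusted p = 0.108, 95% interval 0.00 to 0.58).

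Hoxd9 was the most posterior member called. Control arrays read 0.94, 1.14, 1.67 and 0.93 and PMSG arrays 2.52, 1.87, 1.86 and 1.72. Control 3, the highest control array, came within reach of PMSG 4, the lowest PMSG array, without overlap. The log2 difference was 0.82 ± 0.23 (adjusted p = 0.0251, 1.76-fold). The call was lost without control 1, control 2 or control 4, without variance moderation and with replicate number as a block. Its adjusted p ranged from 0.0117 to 0.0703. Hoxb9, of the same group, did not pass, at -4.41, -4.43, -4.42 and -4.15 in control and -4.00, -4.94, -4.04 and -4.82 in PMSG arrays. Its difference was -0.10 ± 0.23 (adjusted p = 0.765, 95% interval -0.63 to 0.44), and the difference between Hoxd9 and Hoxb9 was not tested.

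**Figure D3:**
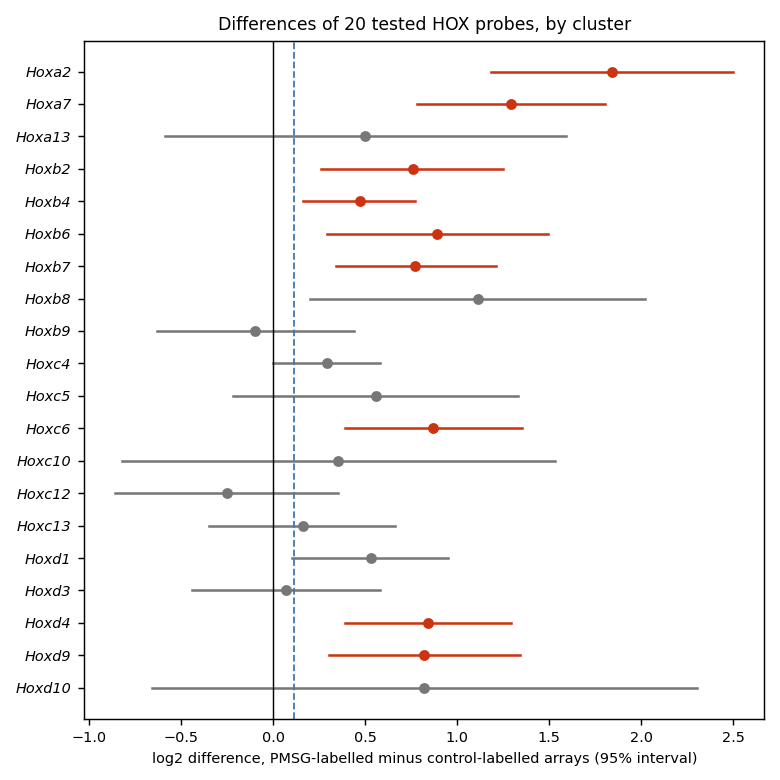
Log2 difference (PMSG-labelled minus control-labelled arrays) with its 95% interval from limma for 20 of the 21 tested HOX probes, in order of cluster and paralogue number; red marks the 9 called, and the dashed line the median of all tested probes at 0.11. Hoxa2 at 1.84 and Hoxa7 at 1.29 lie farthest right, and Hoxb9 at -0.10 and Hoxc12 at -0.25 are the 2 left of 0.

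The 12 tested probes that did not pass were mixed. Hoxb8 had a difference of 1.11 ± 0.40, wider than most of those called, with an adjusted p of 0.0621. It read -5.56, -6.83, -5.88 and -6.24 in control and -4.36, -5.23, -4.54 and -5.95 in PMSG arrays, and PMSG 4 lay within the control range. Without PMSG 4 the difference was 1.42 and the adjusted p 0.0136, in a range from 0.0136 to 0.256. Hoxb8 passed in 4 of 20 alternatives, also with quantile normalization, array weights and replicate number as a block. Hoxd1 differed by 0.53 ± 0.18 (adjusted p = 0.0576, 1.44-fold), with PMSG 4 at -4.83 again within the control range of -4.96 to -4.78. Without PMSG 4 it was 0.69 and passed, at an adjusted p of 0.00579 in a range from 0.00579 to 0.130. Hoxc5, at 0.56 ± 0.34, had an interval that includes 0, and without PMSG 4 it was 0.88 and passed, at an adjusted p of 0.0146 in a range up to 0.465. Hoxd1 and Hoxc5 also passed with array weights, and they passed in 5 and 2 of the 20 alternatives. Hoxd3, at 0.07 ± 0.22, and Hoxc13, at 0.16 ± 0.22, were close to 0, and both turned negative on median centring, at -0.10 and -0.01. Hoxa13, the group 13 gene of distal limb and hindgut, differed by 0.50 ± 0.47 (95% interval -0.59 to 1.59), and Hoxc12 by -0.25 ± 0.26 (95% interval -0.86 to 0.35).

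The call itself depends on each array, so the array values of called and other probes are given as a description: a low PMSG 4 value helps to keep a probe from being called. PMSG 4 was the highest of all 8 arrays for 6 of the 9 called probes, with a median of 1.21 log2 units above the control mean. For the 12 tested probes not called it was above the control mean for 5, with a median of -0.34. PMSG 1 and PMSG 3 were above the control mean for 11 and 12 of those 12. In the control group, control 3 had the highest signal of the 4 for 13 of the 21 tested HOX probes and control 4 the lowest for 12. HOX probes varied more between arrays of a group than probes in general: the median SD over tested HOX probes was 0.26 in control and 0.46 in PMSG arrays, against 0.16 and 0.27 over all tested probes.

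**Figure D4:**
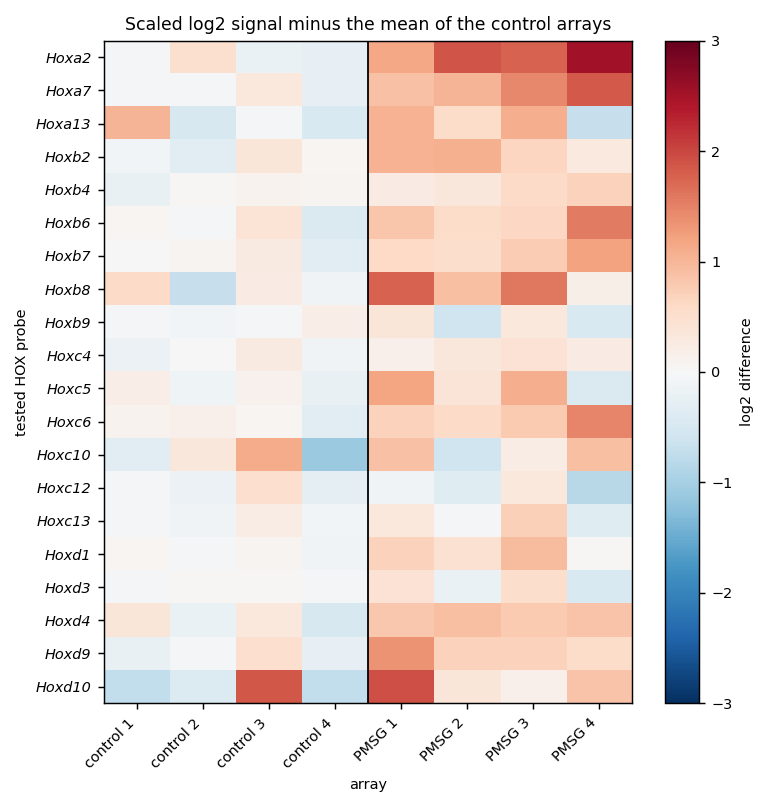
Scaled log2 signal of 20 of the 21 tested HOX probes on each array minus that probe's mean over the 4 control arrays; red is above and blue below the control mean, and the vertical line parts control from PMSG arrays. The 9 called probes are red across PMSG arrays 1 to 4. Among the probes not called, PMSG 4 is blue for 6, including Hoxa13, Hoxb9, Hoxc5 and Hoxc12, and Hoxd10 is red in control 3 and PMSG 1.

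Of the 10 untested probes, several had signal on too few arrays for the test. Hoxb3 was well above background on 0 control and 3 PMSG arrays. It read -7.95, -7.54, -7.94 and -8.19 in control and -5.73, -5.96, -5.73 and -7.86 in PMSG arrays, so PMSG 4 was at the control level. Its mean ratio was 1.13-fold on this scale, with the control arrays held at the lowest spot well above background. PMSG 4 was taken as measured, though not well above background, so this is not a strict lower bound. Hoxb13, on 0 control and 2 PMSG arrays, had a ratio of 1.19-fold on the same scale, with PMSG 1 and PMSG 3 likewise taken as measured. It read -8.56 to -7.19 in control and -6.72 to -5.89 in PMSG arrays. Hoxb1 and Hoxd13 were each well above background on 1 PMSG array, and no fold is given. The untested probes also included those of Hoxa3, Hoxa6, Hoxd12 and Hoxa11 and the Hoxc5 probe detected on no array.

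Hoxa11, a gene of uterus and cervix patterning, had the greatest spread of any HOX probe, and the spread did not follow the labels. It read -8.50, -7.65, -0.75 and -8.56 in control arrays 1 to 4 and -1.20, -7.32, -7.77 and -2.88 in PMSG arrays 1 to 4. Signal well above background was present in control 3, PMSG 1 and PMSG 4 alone. Hoxd10 was detected on every array and was highest on the same 3, at -0.05, 0.01 and -1.07, while the other 5 arrays read -2.66 to -1.57. Its group difference was 0.82 ± 0.64 (adjusted p = 0.344). Without control 3 it was 1.45 and passed, at an adjusted p of 0.0369 in a range from 0.0228 to 0.634. Hoxc10 was highest on the same arrays, at -2.49, -2.72 and -2.69, against -4.70 to -3.26 on the others, with a group difference of 0.35 ± 0.51. Hoxa13 did not share this order, being -5.52 in control 3, -4.40 in PMSG 1 and -6.15 in PMSG 4.

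Of the 15 listed Müllerian duct factors on the array, 3 had those same arrays as their 3 highest, Dlx5, Dlx6 and Msx1, and the other 12 did not; these genes were singled out after their values were seen. Pax2, for example, was highest in PMSG 3 at -3.79 and lowest in PMSG 4 at -5.50, and Wnt4 was lowest in PMSG 4 at -0.03. Dlx5, a distal-less homeobox gene, read -2.14 in control 3, -1.44 in PMSG 1 and -2.29 in PMSG 4, and -5.95 to -4.14 on the others. Dlx6, its neighbour in the genome, read -5.40, -4.07 and -4.95 there and -8.85 to -7.24 elsewhere, and was detected on 1 control and 2 PMSG arrays. Msx1 read -1.32, -0.95 and -1.33 against -3.01 to -2.49. Msx2 was highest on PMSG 4 and PMSG 1, at -2.75 and -2.91, while control 3 at -5.01 was the highest control array and close to PMSG 2 at -4.98. The oviduct epithelium markers did not share this order: their mean scaled log2 signal was -2.40 in control 3 against -2.89 to -2.21 in the other control arrays. Adipocyte markers, 0 of 6 called, were highest in PMSG 3 at 0.47 and control 3 at 0.42 and lowest in control 2 at -2.43. Whether other tissue taken along with some ovaries had a part in these values was not tested.

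**Figure D5:**
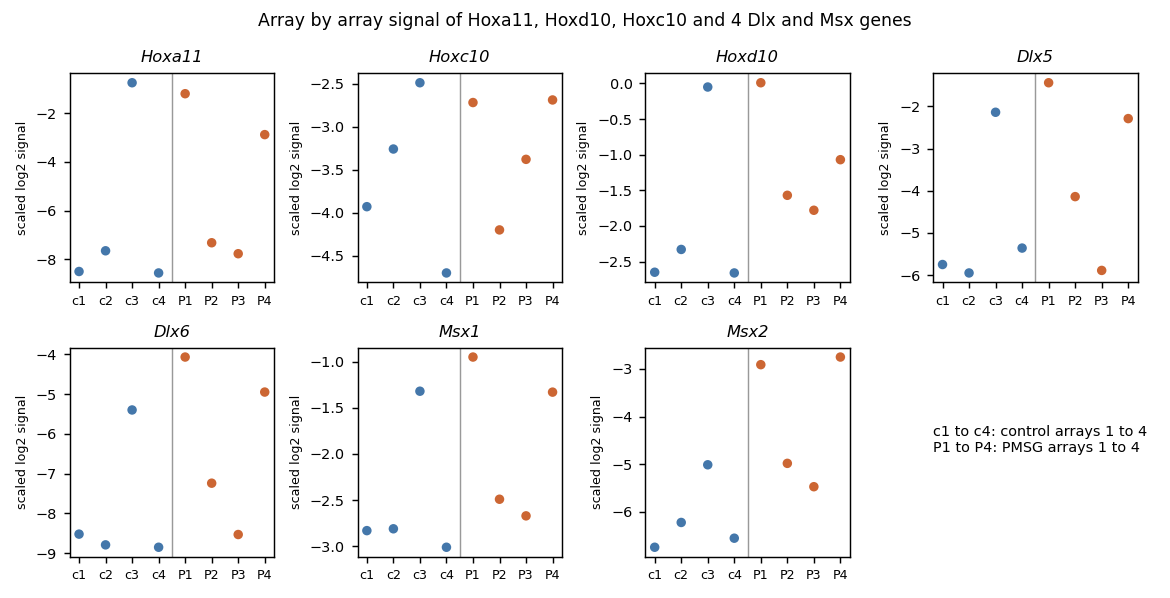
Scaled log2 signal of Hoxa11, Hoxc10, Hoxd10, Dlx5, Dlx6, Msx1 and Msx2 on each array, control arrays 1 to 4 in blue (c1 to c4) and PMSG arrays 1 to 4 in orange (P1 to P4), each panel with its own scale. Hoxa11 is at -0.75, -1.20 and -2.88 in control 3, PMSG 1 and PMSG 4 and at or below -7.32 on the others.

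Of the cell type markers, all 8 oviduct epithelium markers tested were called higher in PMSG. Their mean scaled log2 signal ran from -2.89 to -2.21 in control and from -0.96 to -0.34 in PMSG arrays. Among the marker lists, the oviduct set and the fibroblast and smooth muscle set had their highest mean in PMSG 4. Of the PMSG arrays, PMSG 1 had the lowest mean of both sets. The oocyte markers, also called higher for 8 of 8, ran from -2.38 to -1.64 in control and from -0.64 to 0.23 in PMSG arrays, with PMSG 4 the lowest of the PMSG arrays. Markers of surface epithelium and mesothelium were called for 3 of 8, all higher, with means of -0.27 to 0.14 in control and 0.10 to 0.46 in PMSG arrays. Fibroblast and smooth muscle markers were called for 3 of 10, all higher, with means of 2.79 to 3.28 and 2.89 to 3.52. Endothelial markers were called for 5 of 9, of which 4 were lower, and leukocyte markers for 4 of 8, all higher. Granulosa markers were called for 3 of 6 (1 higher) and theca and steroidogenic markers for 4 of 6 (1 higher). Over all tested genes, with the brightest probe of each, 34.5% were called. The part that these cell types had in the HOX differences was not tested.

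Among the TALE cofactors, 5 of 9 tested genes were called, 3 higher and 2 lower in the PMSG arrays, with a median log2 difference of 0.36. The share called over all tested genes was 34.5%. Meis1, the MEIS partner of HOX and PBX proteins, read 2.40, 2.58, 2.41 and 2.45 in control and 3.44, 3.34, 3.19 and 3.70 in PMSG arrays, a difference of 0.96 ± 0.12 (adjusted p = 0.000824). Meis1 was highest on PMSG 4 and had no overlap between groups. Pbx3 was lower, at a log2 difference of -0.66 (adjusted p = 0.00209) and Pbx4 by -0.68 (adjusted p = 0.00512), but normexp ended the Pbx4 call, at -0.17 and an adjusted p of 0.223.

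Calls among the regulators of HOX transcription went in both directions. Of 28 tested Polycomb genes, 12 were called, 8 higher and 4 lower, with a median of 0.06, beside 34.5% called of all tested genes. Cbx7, a reader of the repressive H3K27 methylation mark, differed by 2.02 ± 0.23 (adjusted p = 0.000457) and Cbx2, another such reader that also acts in gonad development, by 1.31 ± 0.15 (adjusted p = 0.000466). Pcgf3, a subunit of variant Polycomb complexes, was lower, at -0.99 ± 0.15 (adjusted p = 0.00181). Of 12 Trithorax genes, 2 were called, both higher: Kmt2a, the H3K4 methyltransferase that keeps HOX genes active, at 0.84 ± 0.14 (adjusted p = 0.00262), and Psip1, at 0.55 ± 0.14 (adjusted p = 0.0149), a call lost on median centring at 0.38.

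Retinoic acid switches on anterior HOX genes in the embryo, and its pathway was called for 10 of 19 tested genes, 7 higher and 3 lower. Of all tested genes, 34.5% were called. Crabp2, which carries retinoic acid to its nuclear receptor, was lower, at -2.59 ± 0.16 (adjusted p = 5.49e-05). Aldh1a1, a retinaldehyde dehydrogenase that makes retinoic acid, was lower, at -1.12 ± 0.19 (adjusted p = 0.00309). Rbp4, the plasma carrier of retinol, was higher by 1.29 ± 0.38 (adjusted p = 0.0295), a call that was lost without any 1 of 6 arrays, namely all control arrays but control 3 and all PMSG arrays but PMSG 4. These genes did not move in 1 direction.

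Genes that flank the HOX clusters were called for 7 of 17, 2 higher and 5 lower, with a median of -0.18, against 0.56 for the HOX probes. Of all tested genes, 34.5% were called. Calcoco1, next to HOXC, was higher by 1.10 ± 0.10 (adjusted p = 0.000199), and Mtx2, next to HOXD, was lower, at -0.84 ± 0.13 (adjusted p = 0.00208). Skap1, next to HOXB, was called higher (adjusted p = 0.00924), but its control signal was mostly not above background, with detection on 1 control and 3 PMSG arrays and means of -7.22 and -6.11, so no fold is given. That call was lost with normexp, with quantile normalization and with the deposited values, at adjusted p of 0.0579, 0.0736 and 0.0561. Evx1, the homeobox gene at the posterior end of HOXA, differed by 0.44 ± 0.16 and did not pass (adjusted p = 0.0622).

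ParaHox and related homeobox genes were called for 2 of 5, both higher, beside 34.5% called of all tested genes. Cdx2, a ParaHox factor that acts upstream of HOX genes in the embryo, was detected on 0 control and 4 PMSG arrays, with means of -7.42 and -5.37. On this scale the ratio was at least 2.18-fold (limma's adjusted p = 0.00423). Over the alternatives its log2 difference fell as low as 0.43. Meox2, a mesodermal homeobox gene, differed by 0.85 ± 0.22 (limma's adjusted p = 0.0202). Its call was lost with quantile normalization, median centring or replicate number as a block. Leaving out control 1, control 2, PMSG 1 or PMSG 2 also ended it, as did leaving out control 3, PMSG 1 and PMSG 4 together. Of the Müllerian duct factors, 5 of 12 were called, 4 higher and 1 lower, with a median of 0.60, beside the same 34.5% of all tested genes. Msx2 differed by 2.11 ± 0.69 (adjusted p = 0.0462), which rests on PMSG 1 and PMSG 4 in part: without PMSG 1 it was 1.73 and without PMSG 4 it was 1.68, and neither passed, nor did it pass without control 1, control 2 or control 4. Pax8, an epithelial duct factor that is also among the oviduct markers, differed by 1.27 ± 0.15 (adjusted p = 0.000604) and Wnt7a, a ligand of duct epithelium, by 1.24 ± 0.34 (adjusted p = 0.0227), the latter lost without control 2, control 4 or PMSG 1. Emx2, a homeobox gene required for the duct, differed by 0.74 ± 0.24 (adjusted p = 0.0416), and the call was lost without any 1 of 7 arrays, all but control 3.

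The probe named Hoxa9l, at chr4:80523451-80523510, read -4.19, -2.70, -1.82 and -3.90 in control and -1.28, -2.18, -1.61 and -0.59 in PMSG arrays. Its log2 difference was 1.74 ± 0.55 (adjusted p = 0.0421). The groups overlapped, since control 3 lay above PMSG 2, and control 3 was again the highest control array.

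The promoters of called HOX genes were searched for sequence that HOX, cAMP and nuclear receptor factors are known to bind. Whether these genes share a regulator was not tested. RefSeq's table for the rat build GRCr8 held a promoter for 15 of the 29 HOX genes and for 4 of the 9 called. The 250 bases before each start are shown on the gene's own strand, with matches in capitals.

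Hoxa2 (chr4:82595693-82595942, minus strand): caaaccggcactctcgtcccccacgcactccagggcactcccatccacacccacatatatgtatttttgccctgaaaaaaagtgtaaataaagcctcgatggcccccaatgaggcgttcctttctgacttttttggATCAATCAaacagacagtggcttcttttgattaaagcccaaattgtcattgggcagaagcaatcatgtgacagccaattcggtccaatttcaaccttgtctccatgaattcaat
Hoxa7 (chr4:82648242-82648491, minus strand): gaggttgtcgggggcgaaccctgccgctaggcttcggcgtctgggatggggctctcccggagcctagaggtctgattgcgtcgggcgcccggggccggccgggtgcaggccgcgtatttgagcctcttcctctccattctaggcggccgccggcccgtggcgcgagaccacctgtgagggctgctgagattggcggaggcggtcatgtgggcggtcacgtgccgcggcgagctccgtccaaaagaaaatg
Hoxd4 (chr3:80021636-80021885, plus strand): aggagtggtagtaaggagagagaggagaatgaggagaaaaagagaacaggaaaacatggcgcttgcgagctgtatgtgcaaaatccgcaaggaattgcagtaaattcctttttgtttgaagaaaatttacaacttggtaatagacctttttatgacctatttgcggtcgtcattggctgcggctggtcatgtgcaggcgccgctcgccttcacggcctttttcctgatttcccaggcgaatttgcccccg
Hoxd9 (chr3:80007756-80008005, plus strand): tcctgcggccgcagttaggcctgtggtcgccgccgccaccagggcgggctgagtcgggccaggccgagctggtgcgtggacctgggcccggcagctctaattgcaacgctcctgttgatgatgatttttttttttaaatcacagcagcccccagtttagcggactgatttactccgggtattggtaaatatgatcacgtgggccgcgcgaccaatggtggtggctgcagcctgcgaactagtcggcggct

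Searched on both strands were TGATNNAT, a HOX-PBX site, TGACGTCA, the cAMP response element, and CAAGGTCA, the NR5A (steroidogenic factor) site; the motifs do not contain one another. Hoxa2 held 1 match, to the HOX-PBX letters on the opposite strand, and Hoxa7, Hoxd4 and Hoxd9 held 0 of the 3 motifs. Over all 33469 promoters of the same length, 7.96% held the HOX-PBX letters, 1.59% the cAMP response element and 1.33% the NR5A site. Of the members not called, Hoxb1 also held 1 HOX-PBX match. These matches describe the letters alone.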

How the data were processed

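Per the file headers, spots were quantified with Agilent Feature Extraction 11.5.1.1, which detrended signals and replaced spots not above background with surrogate values. The deposited scanner files give intensity per spot. The authors' value table, also deposited, holds log2 values on a scale like log2 intensity minus each array's 75th percentile, with no centring. Differences from it did not match those here for some dim probes. Hoxb2 differed by 0.04 there and 0.76 here, and Hoxb8 by 0.53 and 1.11, while Hoxa7 differed by 1.29 in both. The columns of that table were all matched to arrays, and the table was used as an alternative. Log2 processed signals of the usable spots of a probe were averaged and scaled by the 75th percentile. A set of 17 probes without a usable spot was dropped. Probes detected on at least 4 of 8 arrays (25303) were tested with limma 3.58.1 in R 4.3.3 (lmFit, eBayes, no covariates), checked on simulated data, with p-values adjusted after Benjamini and Hochberg across all of them. For list genes the brightest probe was used. Of 185 listed genes 175 were on the array and 170 tested, of which 80 were called. All HOX probes were counted, and those called were given in full. For other lists the named genes were up to 3 of the called genes with the largest difference, plus Meis1, Emx2 and Evx1. Some items that this rule covers are counted but not reported by name here. Marker lists were given mainly as counts. Members and lists were chosen with earlier results of these data known. Replicate numbers were not used to pair the samples, except in the replicate block alternative. Precision is limited by having 4 arrays in each group. Sequences came from the array files and RefSeq.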

Additional observations from a re-analysis of the deposited data

Results flagged for a closer look

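In 148 groups of 4 arrays (58 of them HOX probes), 9 had 1 array whose distance to its nearest neighbour was an unusually large share of the whole range, beside 7.4 that a rate of 1 in 20 gives by chance. Among HOX probes there were 4. Hoxa11 in control 3 read -0.75 against -8.56 to -7.65, with a gap of 0.883 of the range. Hoxd10 in control 3 read -0.05 against -2.66 to -2.33, with a gap of 0.874. Hoxb3 in PMSG 4 read -7.86 against -5.96 to -5.73, with a gap of 0.893. Hoxb9 in control 4 read -4.15 against -4.43 to -4.41, with a gap of 0.935.

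Among the named genes of the lists, Insl3 in PMSG 4 read 2.49 against 3.50 to 3.59 (gap 0.921). Emx2 in PMSG 4 read 2.62 against 1.95 to 2.04 (gap 0.867). Cbx7 in PMSG 3 read -0.95 against -0.13 to -0.04 (gap 0.904). Laptm5 in PMSG 3 read 2.52 against 2.42 to 2.43 (gap 0.903), and Cdh16 in control 4 read -1.31 against -0.72 to -0.65 (gap 0.887).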

How the results depend on the processing

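The count of 9 called HOX probes was 5 with median centring and 5 with the replicate block (4 of them among the 9), and 5 to 12 when 1 array was left out; under the other alternatives it was 6 to 11, or 12 with array weights. The share of all probes called higher moved too, from 17.6% to 24.9% with array weights and 27.6% without PMSG 4, the setting that gave 12 among those that left out 1 array. Median centring moved the median of all probes from 0.11 to -0.05, and the cause of lost calls was not tested. All called HOX probes were higher in PMSG under every alternative except quantile normalization, where 1 of 10 was lower (Hoxc12). The median HOX difference ran from 0.36 to 0.73 and the called list genes from 65 to 90. For list genes, the settings named above are not all those under which a call was lost. HOX probes detected on all 8 arrays numbered 15 when all usable spots had to be well above background and 26 by the positive-and-significant flag. Without control 3, PMSG 1 and PMSG 4, an alternative chosen after seeing the data, 7 were called. Differences near 0 changed sign: Hoxb9 to 0.03 with normexp and 0.01 with array weights, Hoxc12 to 0.05 with normexp and 0.13 without those 3 arrays, Hoxc13 to -0.07 with quantile normalization and -0.01 with median centring, and Hoxd3 to -0.19 and -0.10 with the same. Leaving out 1 array gave -0.24 to 0.07 for Hoxb9, -0.01 to 0.72 for Hoxc10, -0.03 to 0.33 for Hoxc13 and -0.08 to 0.25 for Hoxd3. Same-numbered arrays had correlations of deviations of 0.0444, 0.0361, 0.183 and -0.0192. Arrays with different numbers were not correlated, so these values cannot decide whether the numbers pair the samples. Signal near background limits Hoxa2, Hoxb2 and the untested probes.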
